A study of Mus musculus with 11 samples.

Results

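The genes of the enzymes that methylate DNA in the mouse, Dnmt1, Dnmt3a and Dnmt3b, the cofactor gene Dnmt3l and the maintenance factor gene Uhrf1 were followed through an assay of 5-hydroxymethylcytosine (5hmC). Members were the 2 kb tiles of the deposited table that overlap the annotated span of each gene on the mouse build GRCm38, extended by 2 kb on both sides. This gave 137 tiles of the 1362779 in the table: 29 at Dnmt1, 60 at Dnmt3a, 22 at Dnmt3b, 13 at Dnmt3l and 13 at Uhrf1. The spans are chr9:20907206-20959888 for Dnmt1 on the minus strand and, on the plus strand, chr12:3801559-3914443 for Dnmt3a, chr2:153649411-153687730 for Dnmt3b, chr10:78042287-78063622 for Dnmt3l and chr17:56303337-56323486 for Uhrf1. Some tiles also overlap other genes, most at Dnmt3a, where 9 lie in Gm31623 and 3 in Dnmt3aos. All but 1 passed the filter on signal. The exception, chr9:20908001-20910000 in the 3′ part of Dnmt1, held the highest signal of that gene and lay above the upper limit of the filter.

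The assay, HMCP-seq, captures sonicated genomic DNA fragments that carry 5hmC with a commercial kit and sequences them. The 11 libraries cover 2 wild-type mouse lines, each the parent of a knockout line. TET_WT, parent of a Tet1, Tet2 and Tet3 triple knockout, was sampled as embryonic stem (ES) cells kept in 2i/Lif at day 0 (n = 3). The same line was sampled as epiblast-like cells (EpiLC) at day 1 (n = 2, replicates 2 and 3) and day 2 (n = 3). DNMT_WT, parent of a Dnmt1, Dnmt3a and Dnmt3b triple knockout, was sampled as EpiLC at day 2 (n = 3). Both lines are labelled wild type, and the knockout lines and embryoid bodies were not analysed here. Each line is a single cell line, and the labels do not say whether replicates were separate cultures, so p-values measure only the spread between these libraries.

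DNA methylation is set by de novo methyltransferases and copied at each cell division by a maintenance enzyme. Dnmt3a and Dnmt3b are the de novo enzymes, and Dnmt3l has no catalytic activity of its own but stimulates both. Dnmt1 copies methylation onto the new strand, and Uhrf1 recruits it by binding hemimethylated DNA. TET enzymes oxidise the methyl mark to 5hmC, which is usually enriched over the bodies of transcribed genes and sparse at CpG islands. Dnmt1 is known to use separate first exons in oocytes and in somatic cells, and its starts are named here by position only. Cells in 2i medium have little DNA methylation and regain it as they become EpiLC. The signal over a gene is a property of its DNA and not a measure of its RNA, so the labelled cell types could not be checked by expression here. For reference, the mean signal over 6 naive ES cell marker genes ran from -1.87 to -1.60 log2 RPKM in the day 0 libraries and from 0.32 to 0.42 in the TET_WT day 2 libraries. Over 4 EpiLC marker genes, Dnmt3b among them, it ran from -0.28 to -0.11 and from 0.18 to 0.32. Lists of 4 genes each for other cell types ran from -0.53 to -0.20 and from -0.25 to -0.03 (fibroblasts or feeder cells) and from -0.43 to -0.15 and from -0.03 to 0.09 (endoderm), and the part of other cells in the results was not tested.

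Values are log2 RPKM, that is log2 of reads per kilobase scaled to a total per library, so a change in the total 5hmC of a cell cannot be seen. The value of a gene is the mean over its tested tiles of equal length, and a difference of 1 is a doubling of the geometric mean RPKM. A call means an adjusted p under 0.05 by limma over all genes or all tiles. Libraries held 7342015 reads in day 1 replicate 2, the shallowest, to 51604034 in day 0 replicate 1. These totals, summed from the reads recovered per tile, are 2.321 to 2.323 times the total that the deposited RPKM implies in each library. The reason is not known, and with a near constant ratio it hardly touches differences between libraries. The reads over 1 member in 1 library ran from 146 over Uhrf1 to 7084 over Dnmt3a, and a tile without reads has a depth-dependent floor value between -5.63 and -2.81. Day 0 replicate 2 stood apart from its group: gene values correlated with replicates 1 and 3 at r = 0.935 in both cases, against 0.957 between those 2 and 0.981 within TET_WT day 2 (across genes, which are not replicates). It had the highest value of its group for each of the 5 members.

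The members differ in how many CpG sites surround their transcription starts. RefSeq promoter windows of 300 bases (250 before and 50 after a start, GRCm38) were found for all 5 genes, 12 windows in all. The 5 shown are some of those whose tiles are described below. They are the CpG-poor upstream start and the CpG-rich downstream start of Dnmt1, the internal start of Dnmt3a, and CpG-rich starts of Dnmt3b and Uhrf1. Capitals mark each CG dinucleotide, which reads the same on both strands.
Dnmt1 upstream start: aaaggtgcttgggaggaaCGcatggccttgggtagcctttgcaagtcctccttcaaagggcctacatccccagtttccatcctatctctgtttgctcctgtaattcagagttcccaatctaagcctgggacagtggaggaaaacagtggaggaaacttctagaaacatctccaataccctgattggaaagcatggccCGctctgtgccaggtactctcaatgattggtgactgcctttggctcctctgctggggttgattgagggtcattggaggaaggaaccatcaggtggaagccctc
Dnmt1 downstream start: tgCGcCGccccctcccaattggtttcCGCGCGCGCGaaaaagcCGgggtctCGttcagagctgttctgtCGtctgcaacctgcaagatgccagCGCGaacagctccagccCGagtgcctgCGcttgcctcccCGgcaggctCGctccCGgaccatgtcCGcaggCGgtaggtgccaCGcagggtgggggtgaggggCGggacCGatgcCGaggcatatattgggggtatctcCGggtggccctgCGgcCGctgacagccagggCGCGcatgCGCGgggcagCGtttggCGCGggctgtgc
Dnmt3a internal start: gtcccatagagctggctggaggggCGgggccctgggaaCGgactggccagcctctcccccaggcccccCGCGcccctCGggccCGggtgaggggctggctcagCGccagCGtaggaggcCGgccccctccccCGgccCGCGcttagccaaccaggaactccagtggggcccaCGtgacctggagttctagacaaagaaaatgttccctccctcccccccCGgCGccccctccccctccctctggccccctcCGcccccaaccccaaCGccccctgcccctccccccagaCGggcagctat
Dnmt3b start: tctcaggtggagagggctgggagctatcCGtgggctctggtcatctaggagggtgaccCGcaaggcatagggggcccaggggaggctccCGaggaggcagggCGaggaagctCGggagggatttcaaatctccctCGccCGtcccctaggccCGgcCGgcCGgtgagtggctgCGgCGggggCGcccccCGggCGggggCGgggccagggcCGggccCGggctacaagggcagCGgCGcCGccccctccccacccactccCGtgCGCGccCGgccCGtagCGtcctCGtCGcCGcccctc
Uhrf1 downstream start: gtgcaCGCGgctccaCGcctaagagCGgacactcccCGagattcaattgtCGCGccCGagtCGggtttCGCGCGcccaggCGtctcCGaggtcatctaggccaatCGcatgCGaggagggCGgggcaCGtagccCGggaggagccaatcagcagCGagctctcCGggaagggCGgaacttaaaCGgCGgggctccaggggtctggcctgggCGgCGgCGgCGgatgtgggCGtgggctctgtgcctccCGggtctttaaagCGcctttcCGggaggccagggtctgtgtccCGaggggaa
The Dnmt1 windows lie on the minus strand at chr9:20959839-20960138 and chr9:20952574-20952873. The others lie on the plus strand at chr12:3891494-3891793 (Dnmt3a), chr2:153649199-153649498 (Dnmt3b) and chr17:56304063-56304362 (Uhrf1). They hold 2, 33, 18, 30 and 33 CG sites in the order printed. The median over all 32851 RefSeq promoter windows of that length is 7, and 94.57% hold at least 1. The 2 windows of the CpG-rich 5′ start region of Dnmt3a, not printed, hold 46 and 47, and 98.56% and 98.78% of all windows hold at most as many. Dnmt3l has only CpG-poor windows, with 6, 4 and 3 sites.

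The 5hmC signal dipped at the most CpG-rich starts of Dnmt1, Dnmt3a and Uhrf1 and did not dip at that of Dnmt3b. It also dipped at a CpG-poor start of Dnmt3l in TET_WT. At Dnmt1 the tile over the CpG-rich start (chr9:20952001-20954000), which also holds a start with 12 CG sites, was the lowest of all 29 tiles in each of the 4 groups. Its mean was -2.65 log2 RPKM at day 0, -3.19 at day 1, -2.90 at TET_WT day 2 and -2.10 in DNMT_WT, with 0 to 11 reads per library. The tile over the 5′ CpG-rich starts of Dnmt3a (chr12:3806001-3808000) held 0 to 4 reads in each TET_WT library and 12, 8 and 4 in the DNMT_WT libraries. The Uhrf1 tile over the window with 33 sites (chr17:56304001-56306000) was the lowest of 13 at days 0, 1 and 2 of TET_WT. The Dnmt3b start tile (chr2:153648001-153650000) sat instead at 0.33 at day 0 and 1.82 at TET_WT day 2, and its window holds 30 CG sites. At Dnmt3l the tile over a start with only 4 CG sites (chr10:78048001-78050000) was the lowest of 13 on all TET_WT days. Its means were -1.42 at day 0, -1.66 at day 1 and -1.82 at day 2. A tile is far longer than a promoter window, so it also reads the DNA beside the start.

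**Figure D1:**
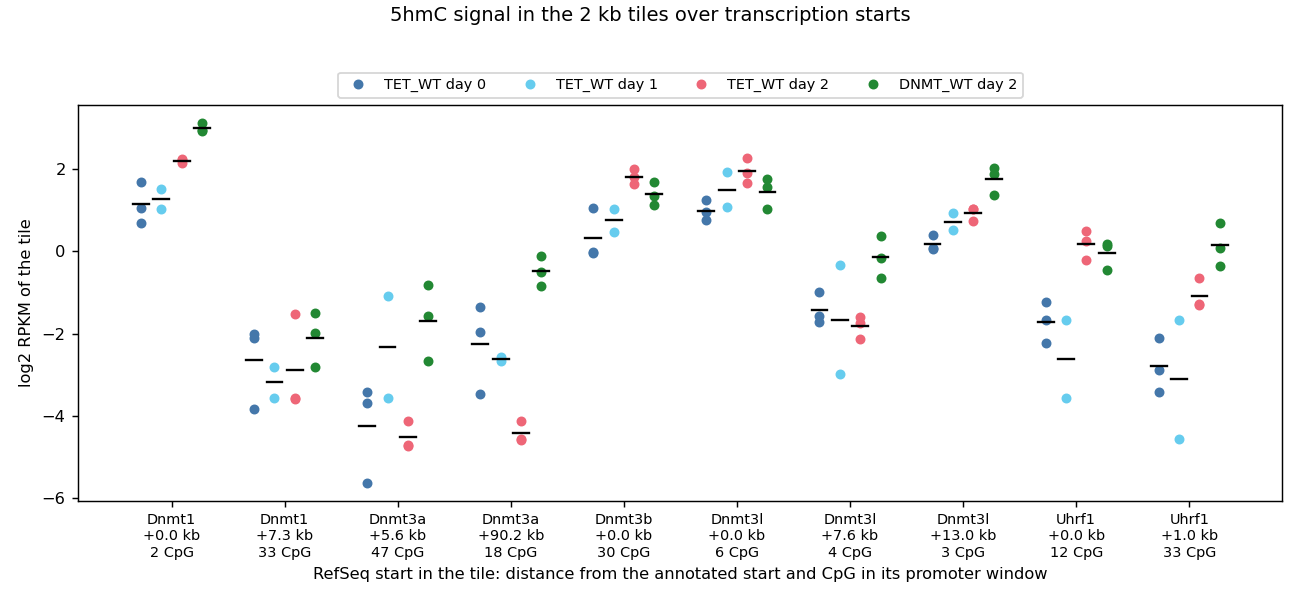
Log2 RPKM of the 2 kb tile over each RefSeq start of the 5 genes (y axis) by start, with its distance from the annotated gene start and the CG sites in its promoter window (x axis). Where a tile holds several starts, 1 is labelled. Points are libraries and bars are group means. The Dnmt3b and Dnmt3l tiles at 0.0 kb lie above -1 in every library, and the Dnmt3a tile at +90.2 kb falls to between -4.60 and -4.12 in TET_WT day 2.

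Day 2 was compared with day 0 to follow the genes through the exit from the ground state. Uhrf1 gained signal and was the only member called. It held 0.07, 0.63 and -0.17 log2 RPKM in day 0 replicates 1, 2 and 3 and 1.25, 1.31 and 1.26 in the TET_WT day 2 libraries. All 3 day 2 libraries lay above all 3 day 0 libraries. Uhrf1 rose by 1.10 (SE 0.16, adjusted p = 0.000488 by limma), or 2.14-fold, and from percentile 65.29 to 90.29 among the 20713 protein-coding genes with a value. The call held in all 24 alternatives run, with differences from 0.67 (span with 20 kb flanks) to 1.32 (without day 0 replicate 2). It was 0.71 when RPKM was averaged before the log and 0.74 with voom on summed reads. Across all genes 17.8% were called, 15.3% higher and 2.51% lower, so 1 called member in 5 is near the background.

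Within Uhrf1 the gain lay at both ends. All 7 called tiles were higher: the upstream tile, the start tile, chr17:56308001-56310000 and the 4 tiles from 56318001 to the downstream flank. The tile of smallest p, chr17:56320001-56322000 near the 3′ end, held -0.35, 0.22 and -0.24 at day 0 and 1.31, 1.90 and 1.40 at day 2. It rose by 1.66 (SE 0.27, adjusted p = 8.45e-07). The upstream tile (chr17:56300001-56302000), which also overlaps Arrdc5, showed the largest difference of the gene, 2.04 (SE 0.35, adjusted p = 2.1e-06). Its values were -1.02, -0.36 and -1.16 at day 0 and 1.26, 1.52 and 0.80 at day 2, so the groups were well apart.

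The Uhrf1 start tile (chr17:56302001-56304000) held -1.67, -1.22 and -2.24 at day 0 and 0.49, -0.22 and 0.25 at day 2, from 9 to 34 reads. It rose by 1.89 (SE 0.56, adjusted p = 0.0156). That call was lost without day 0 replicate 3 (adjusted p = 0.0846), day 2 replicate 1 (0.131) or day 2 replicate 3 (0.0848). The next tile, over the CpG-rich window printed above, differed by 1.72 without a call (adjusted p = 0.148). The middle of the gene, the 3 tiles of chr17:56310001-56316000, already held high signal at day 0. Their means were 1.63, 2.34 and 2.08 at day 0 and 2.10, 2.15 and 2.22 at day 2, with overlapping groups and a difference of 0.14. The first and last parts of the gene, of about the same length, differed by 1.27 and 1.05, each without overlap. The spread (SD) over the 13 tiles of Uhrf1 narrowed from 1.74 at day 0 to 1.22 at day 2.

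**Figure D2:**
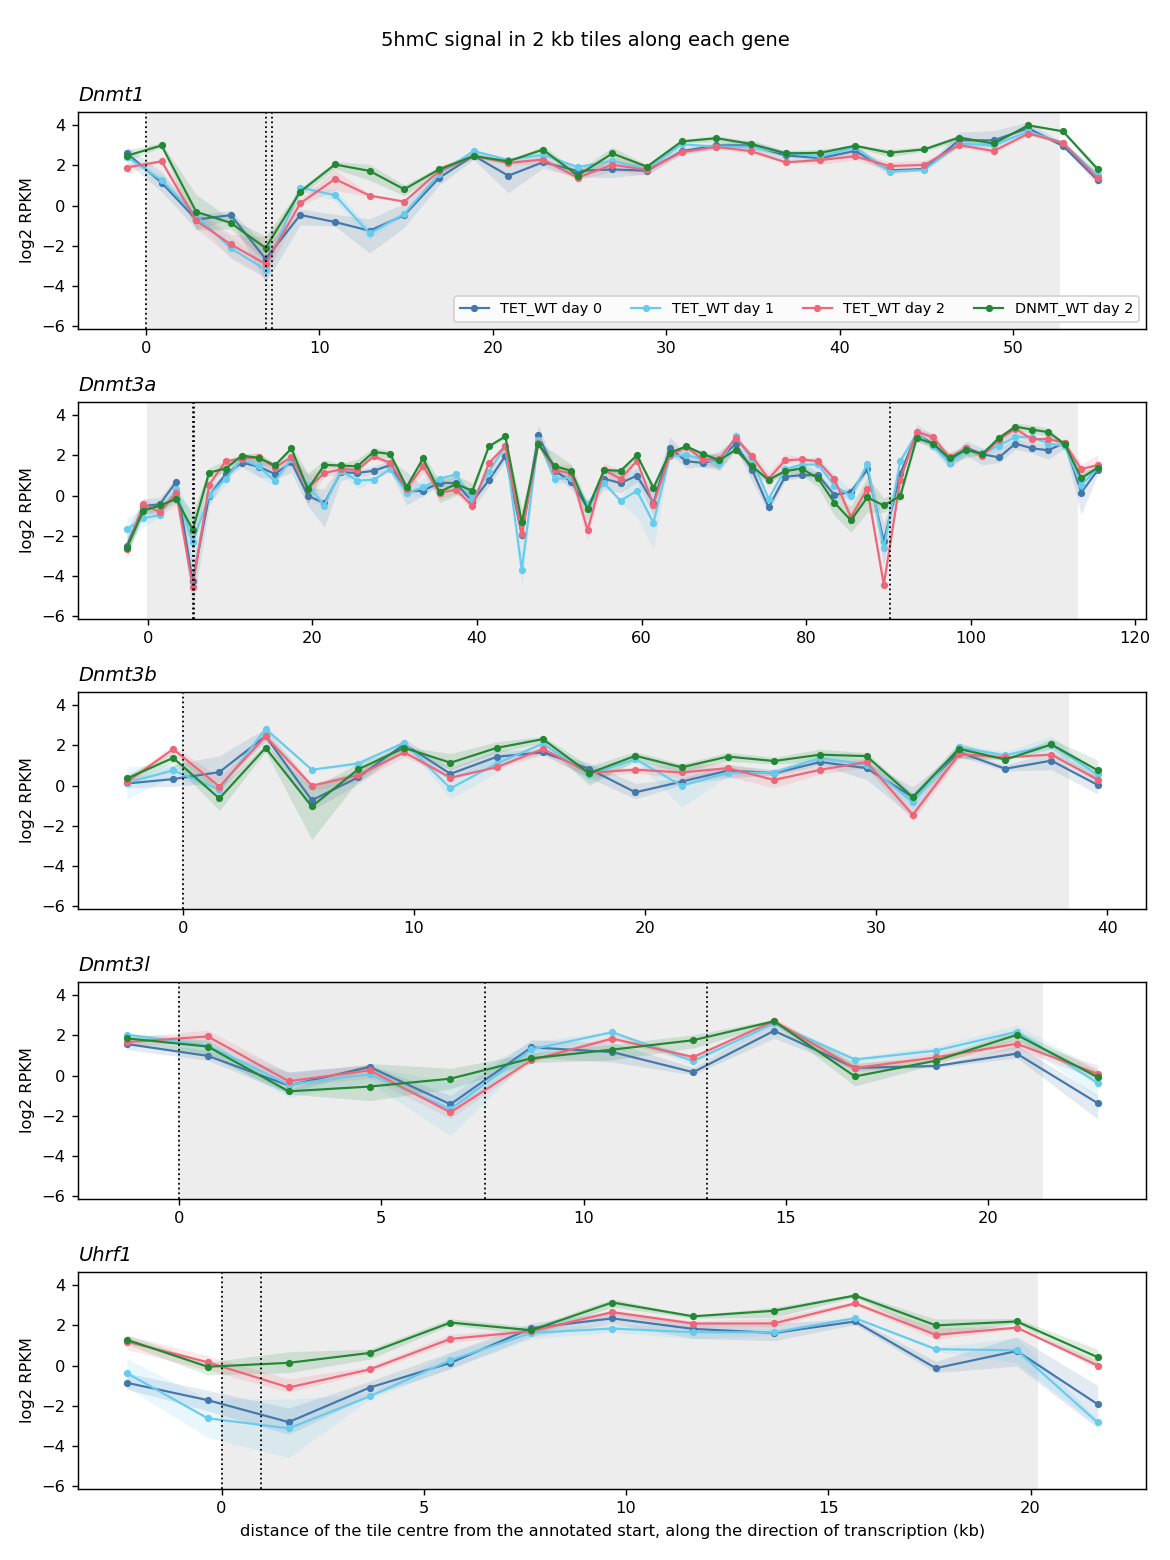
Mean log2 RPKM of each tile (y axis) by distance of the tile centre from the annotated start in the direction of transcription (x axis, kb), in 1 panel per gene. Lines are group means, bands span the lowest to the highest library, the grey area is the annotated gene and dotted lines are RefSeq starts. At Uhrf1 the day 2 lines run above the day 0 line at both ends and close to it at 7.66 kb, and at Dnmt1 all groups reach their lowest value at 6.89 kb.

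Dnmt1, which held the most signal per length of the 5 genes in every group, showed no call as a gene at day 2. Its values were 1.34, 1.66 and 1.33 at day 0 and 1.5, 1.68 and 1.52 at day 2, overlapping groups. The difference was 0.13 (SE 0.10, adjusted p = 0.467), and 0.23 (adjusted p = 0.0276) without day 0 replicate 2. Its sign turned, to -0.02, when RPKM was averaged before the log.

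Single stretches of Dnmt1 did change, in both directions. Of its 28 tested tiles 4 were called higher and 2 lower, the latter at the upstream flank and at chr9:20910001-20912000 in the 3′ part (-0.53, adjusted p = 0.0117). The strongest tile call of any member was chr9:20948001-20950000, 10.9 kb inside the annotated span and downstream of the CpG-rich start. It held -0.43, -0.98 and -1.02 at day 0 and 0.76, 1.78 and 1.42 at day 2, with 13 to 33 and 41 to 63 reads, and rose by 2.13 (SE 0.30, adjusted p = 6.0e-09). The next tile, chr9:20946001-20948000, rose by 1.75 (SE 0.40, adjusted p = 0.000656). The tile over the upstream CpG-poor start (chr9:20958001-20960000) held 0.70, 1.69 and 1.06 at day 0 and 2.21, 2.25 and 2.16 at day 2. It rose by 1.06 (SE 0.21, adjusted p = 5.36e-05), while the tile before it (chr9:20960001-20962000) fell by 0.71 (SE 0.19, adjusted p = 0.00481). A gain at the upstream start thus sat beside a loss in the next tile. The largest negative difference, -1.46 at chr9:20954001-20956000 between the upstream and downstream starts, was not called (adjusted p = 0.174). The first part of Dnmt1 was higher at day 2 by 0.46, without overlap. The middle and last parts differed by 0.03 and -0.11, with overlapping groups.

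Over all members 27 of 136 tested tiles were called higher and 3 lower, 22.06%. Of all 1183888 tested tiles 8.01% were called, 5.33% higher and 2.68% lower. The median difference of the member tiles was 0.20 and that of all tiles -0.05. Few tile calls held under 2 of the alternatives: 1 member tile stayed called with reads thinned to 7342015 per library and 1 without the variance trend. Without day 2 replicate 2 the count was 19. Neighbouring tiles of a gene share a source and are not replicates.

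**Figure D3:**
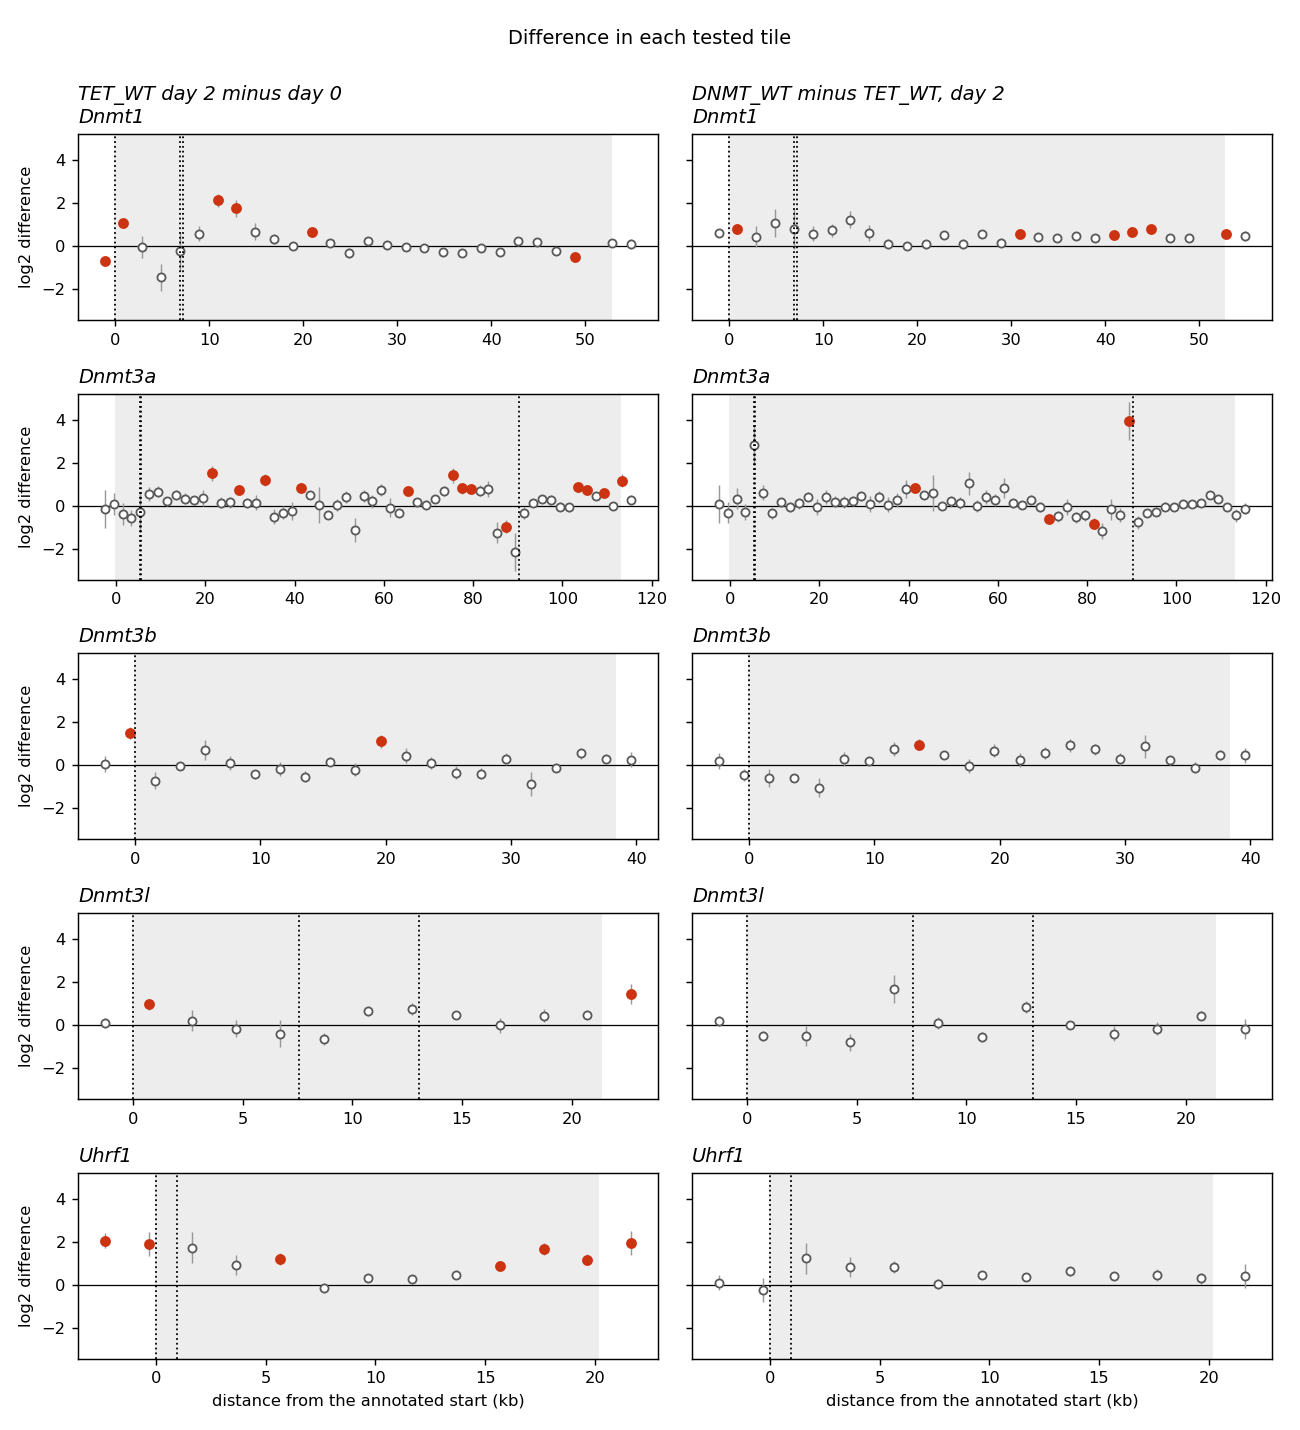
Difference in log2 RPKM of each tested tile (y axis) by distance from the annotated start (x axis, kb), for TET_WT day 2 minus day 0 (left) and DNMT_WT minus TET_WT at day 2 (right). Filled red points are called (adjusted p under 0.05), open points are not, bars are 1 SE, grey marks the gene and dotted lines RefSeq starts. On the left the called tiles number 6 at Dnmt1, 13 at Dnmt3a, 2 at Dnmt3b, 2 at Dnmt3l and 7 at Uhrf1, and on the right 6, 4, 1, 0 and 0.

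Among the de novo genes, Dnmt3a rose at 12 tiles spread along its length without a call as a gene. Its gene value was 0.69, 1.12 and 0.80 at day 0 and 1.03, 1.09 and 1.09 at day 2. Only replicate 2 of day 0 reached the day 2 libraries. The difference was 0.20 (SE 0.11, adjusted p = 0.267), 0.32 (adjusted p = 0.0107) without day 0 replicate 2 and 0.31 (adjusted p = 0.0131) with voom. Of all genes 31.6% were called without day 0 replicate 2 and 33.3% with voom, against 17.8% in the main fit. Called tiles numbered 12 higher and 1 lower of 60, from 21.4 to 113 kb past the annotated start, and none of them was a start tile.

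The Dnmt3a tile with the largest gain, chr12:3822001-3824000, held -1.57, 0.36 and 0.08 at day 0 and 1.40, 0.97 and 1.0 at day 2, a rise of 1.5 (SE 0.34, adjusted p = 0.000537). It was lost without day 0 replicate 1 (0.90, adjusted p = 0.102), the library with the lowest value. The tile of smallest p, chr12:3904001-3906000 near the 3′ end, rose by 0.87 (SE 0.18, adjusted p = 9.6e-05), from 1.64, 2.38 and 1.69 to 2.88, 2.82 and 2.62. The single fall, 0.97 at chr12:3888001-3890000 (SE 0.32, adjusted p = 0.0355), lies just before the internal start. The tile over that start (chr12:3890001-3892000) held 4, 10 and 11 reads at day 0 and 1 read in each day 2 library, a difference of -2.16 that was not called (adjusted p = 0.135). The first, middle and last parts of the gene differed by 0.25, 0.16 and 0.21, with overlapping groups in each.

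Dnmt3b, whose RNA is a standard marker of the EpiLC state, changed at its start and at 1 tile of its body. The gene value was 0.62, 0.95 and 0.66 at day 0 and 0.91, 0.83 and 0.76 at day 2, with a difference of 0.09 (SE 0.12, adjusted p = 0.702). The start tile, which holds the CpG-rich window printed above, was 1.05, -0.04 and -0.02 at day 0 and 1.81, 1.63 and 2.01 at day 2. It rose by 1.49 (SE 0.28, adjusted p = 1.24e-05) and was the largest gain of the gene. The only other called tile of Dnmt3b, chr2:153668001-153670000 in the middle of the gene, rose by 1.13 (SE 0.30, adjusted p = 0.00541). The largest negative difference, -0.87 at chr2:153680001-153682000, was not called. The profile of Dnmt3b along the gene was the least alike between the 2 days of the 5 members, with r = 0.766 over its 22 tiles, against 0.874 to 0.942 for the others (tiles of 1 gene, given as a description).

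Dnmt3l separated the groups without passing the test. Its values were 0.50, 0.73 and 0.32 at day 0 and 0.81, 0.81 and 0.92 at day 2, so every day 2 library lay above every day 0 library. The difference was 0.33 (SE 0.12, adjusted p = 0.0711), and 0.44 (adjusted p = 0.00982) without day 0 replicate 2. Dnmt3l and Uhrf1 were the 2 members of 5 whose day 2 libraries all lay higher, as did 23.6% of all genes. The Dnmt3l start tile (chr10:78042001-78044000), shared with the neighbouring gene Aire, held 0.95, 1.25 and 0.76 at day 0 and 1.67, 2.27 and 1.92 at day 2. It rose by 0.97 (SE 0.24, adjusted p = 0.00277), a call lost without day 2 replicate 2 (0.81, adjusted p = 0.0768). Reads at that tile cannot be assigned to either gene. The largest positive difference of Dnmt3l, at the downstream tile chr10:78064001-78066000 that also holds Gm51775, was a rise of 1.46 (SE 0.47, adjusted p = 0.0302) from 10 to 22 reads at day 0 and 17 to 34 at day 2. That call was lost without day 0 replicate 1 (adjusted p = 0.235) and without each day 2 library (0.0526 to 0.229). The largest negative one, -0.64 at chr10:78050001-78052000, was not called (adjusted p = 0.171).

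**Figure D4:**
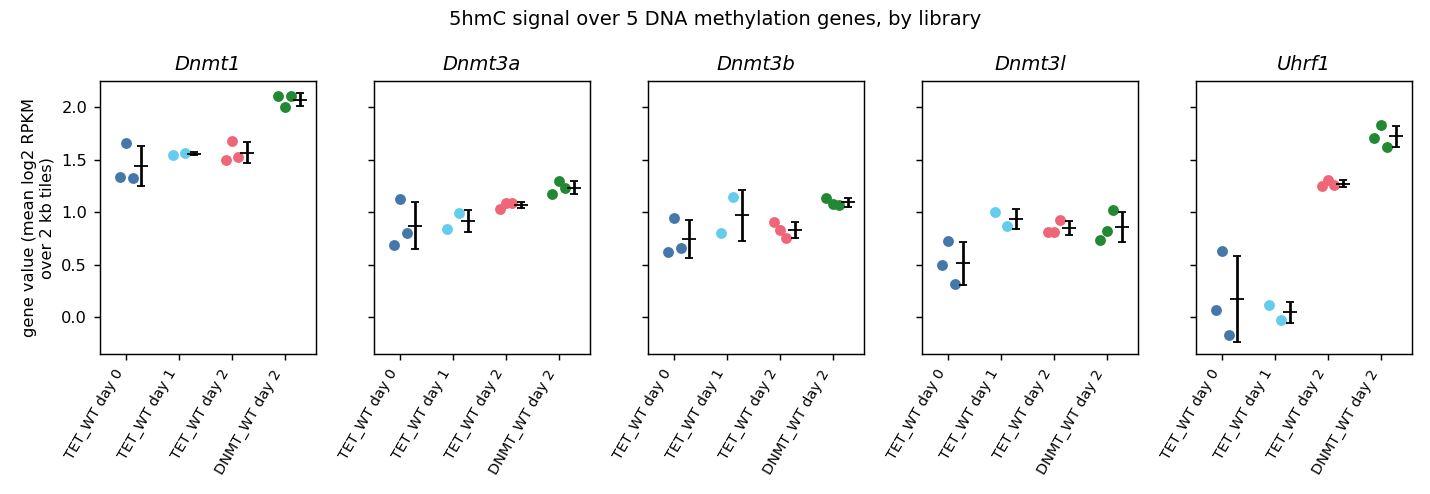
Gene value (mean log2 RPKM over tested 2 kb tiles, y axis) of the 5 genes by group (x axis), in 1 panel per gene on a shared scale. Points are libraries and the bar beside them is the mean with 1 SD. Uhrf1 lies between -0.17 and 0.63 at days 0 and 1 and between 1.25 and 1.83 at day 2, and the Dnmt1 points of DNMT_WT, 2.00 to 2.11, lie above all other Dnmt1 points.

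Day 1 was compared with the same day 0 libraries to place the changes in time. No member was called, and neither was any other gene (0% of 20713; 12.3% had an unadjusted p under 0.05, and voom called 0.908%). Uhrf1 held 0.12 and -0.02 in day 1 replicates 2 and 3, inside the day 0 range, with a difference of -0.13 (SE 0.18, adjusted p = 0.784). Dnmt3l held 1.01 and 0.87, above all day 0 libraries, with a difference of 0.42 (SE 0.13, adjusted p = 0.222). It was the only member of 5 with separate groups, against 13.4% of genes that were higher in this way. Dnmt1, Dnmt3a and Dnmt3b differed by 0.12, 0.04 and 0.23.

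Of the member tiles 4 were called at day 1, all higher (2.94%, against 1.01% of all tiles, 0.601% higher and 0.409% lower). They were the Dnmt1 tile chr9:20948001-20950000, the Dnmt3b tile chr2:153668001-153670000 and the Dnmt3l tiles that start at 78052001 and 78062001. The Dnmt1 tile held 0.80 and 0.24 at day 1, above all day 0 libraries, and rose by 1.33 (SE 0.34, adjusted p = 0.0212). The Dnmt3b tile stood at 1.43 and 1.22, above both days beside it, and rose by 1.65 (SE 0.34, adjusted p = 0.00167). Without day 1 replicate 2, the shallowest library, the adjusted p was 0.349 at the Dnmt1 tile, 0.0644 at the Dnmt3b tile and 0.415 at the Dnmt3l tile starting at 78062001, and 1 member tile was called. Without day 0 replicate 2 the count was 11.

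Between day 1 and day 2 Uhrf1 rose by 1.23 (SE 0.18, adjusted p = 0.00122), the only member called, against 9.59% of genes (8.99% higher and 0.599% lower). Day 2 shares its libraries with the comparison above. Median centring of the libraries left the size at 1.26 and the adjusted p at 0.0626. Its start tile went from -1.66 and -3.56 at day 1, from 2 reads each, to 0.49, -0.22 and 0.25 at day 2 (difference 2.79, SE 0.63, adjusted p = 0.00148, and 0.125 without day 1 replicate 3). Its downstream tile, which also overlaps Kdm4b, went from -2.66 and -2.98 to -0.14, 0.27 and -0.10 (difference 2.83, SE 0.63, adjusted p = 0.00123). Dnmt3a was higher without overlap at a difference of 0.15 (adjusted p = 0.478), and 28.2% of all genes were separate in that direction. Dnmt1, Dnmt3b and Dnmt3l differed by 0.01, -0.14 and -0.09.

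Uhrf1 had the most called tiles of the 5 genes between these days. Of 136 member tiles 14 were called higher and 1 lower, 11.03% against 2.96% of all tiles (2.41% higher and 0.551% lower), and 7 of the 14 were in Uhrf1. The count was 7 without day 1 replicate 2, and voom called 0. The Dnmt3b start tile rose by 1.06 (SE 0.31, adjusted p = 0.0297), a call lost without day 1 replicate 3 (0.283) and without each of the day 2 libraries (0.0586 to 0.179). The Dnmt1 upstream start tile rose by 0.94 (SE 0.23, adjusted p = 0.0058), with 0.174 without day 1 replicate 3. The Dnmt1 tile chr9:20946001-20948000 rose by 1.89 (SE 0.45, adjusted p = 0.0031, and 0.0892 without day 1 replicate 2). The called Dnmt3a tile of smallest p, chr12:3860001-3862000, rose by 1.5 (SE 0.31, adjusted p = 0.000311), from -1.08 and 1.56 to 1.74, 1.81 and 1.67. It rested on the 3 reads of day 1 replicate 2, without which the difference was 0.18 (adjusted p = 0.912). The lower tile was again chr12:3888001-3890000 before the internal start of Dnmt3a, at -1.23 (SE 0.35, adjusted p = 0.0266).

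DNMT_WT was compared with TET_WT at day 2 to see how far these levels hold in another wild-type line. The lines also differ in all else that separates them, which cannot be told apart here. Dnmt1 was higher in DNMT_WT, at 2.11, 2.00 and 2.10 against 1.5, 1.68 and 1.52. The 3 libraries of each line were apart by more than their spread, with a difference of 0.51 (SE 0.10, adjusted p = 0.00455), or 1.42-fold. After median centring it was 0.72 (adjusted p = 0.0661). It was the only member called, against 19% of all genes (14.9% higher and 4.07% lower). Of all calls 78.5% were higher, and 92.8% after median centring. The marker lists were higher in the DNMT_WT libraries too, at 0.79 to 0.90 for naive ES cells, 0.34 to 0.46 for EpiLC, -0.01 to 0.07 for fibroblasts or feeder cells and 0.44 to 0.54 for endoderm, and their part in the result was not tested.

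Uhrf1 stood at 1.71, 1.83 and 1.63 in DNMT_WT, above TET_WT by 0.45 (SE 0.16), and missed the threshold (adjusted p = 0.067). It was called without day 0 replicate 2 (adjusted p = 0.00397) or day 0 replicate 3 (0.0303), libraries that enter only through the shared spread. Dnmt3a at 1.17, 1.3 and 1.23 and Dnmt3b at 1.14, 1.08 and 1.07 were higher by 0.16 (adjusted p = 0.347) and 0.26 (adjusted p = 0.135). Dnmt3l overlapped between the lines, at 0.73, 0.82 and 1.02 in DNMT_WT (difference 0.01, SE 0.12). All members but Dnmt3l were higher without overlap, 4 of 5, where 32.8% of all genes were.

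At Dnmt1 the line difference ran along the gene and beyond it. The flanks within 20 kb were higher in DNMT_WT by 0.65 and the body by 0.50, both without overlap. The differences were 0.69, 0.30 and 0.51 over its first, middle and last parts, 27 of 28 tested tiles were positive, and 6 tiles were called higher and 0 lower. Among them was the upstream start tile, at 3.11, 2.92 and 2.95 in DNMT_WT (difference 0.79, SE 0.21, adjusted p = 0.0126). Its adjusted p was 0.0623 without TET_WT day 2 replicate 1, 0.0766 without replicate 3 and 0.105 without DNMT_WT replicate 1. The tile of smallest p lay at the 3′ end (chr9:20906001-20908000), with 3.68, 3.66 and 3.74 against 3.26, 3.07 and 3.07 (difference 0.56, SE 0.14, adjusted p = 0.00543). It was just lost without TET_WT day 2 replicate 2 (adjusted p = 0.0502) or replicate 3 (0.0529).

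The largest tile difference between the lines sat at the internal start of Dnmt3a. Dnmt3a is known to make a shorter protein form from an internal promoter, the main form in ES cells. The tile chr12:3890001-3892000, which also lies in the gene Gm31623, held 20, 13 and 18 reads in the DNMT_WT libraries and 1, 1 and 1 in TET_WT day 2. On the log2 RPKM scale these were -0.83, -0.13 and -0.50 against -4.60, -4.12 and -4.56, with no overlap (difference 3.94, SE 0.89, adjusted p = 0.00155). As a ratio of read rates, 51 reads against 3 at the libraries' totals, DNMT_WT was 14.7-fold higher (exact 95% interval from 4.76 to 73.7). The interval covers counting error only. It does not cover the choice of the tile, the called one of smallest p at Dnmt3a in this comparison. With reads thinned to equal depth the difference was 2.39 without a call (adjusted p = 0.349).

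On either side of that start some tiles differed the other way. The tile just downstream, chr12:3892001-3894000, held -0.11, 0.34 and -0.28 in DNMT_WT against 0.57, 1.13 and 0.57. Its difference of -0.77 was not called (adjusted p = 0.16 by limma). Of the 4 called tiles of Dnmt3a 2 were lower in DNMT_WT, at chr12:3872001-3874000 (-0.60, adjusted p = 0.0219) and chr12:3882001-3884000 (-0.85, adjusted p = 0.0422), and the second higher tile was chr12:3842001-3844000 (0.83, adjusted p = 0.0211). These 3 and the downstream tile were singled out after their values were seen. The CpG-rich 5′ start tile of Dnmt3a, also added after its values were seen, held 24 reads in DNMT_WT and 1 in TET_WT day 2. The ratio was 20.8-fold, with an interval from 3.38 to 854 that covers counting error only and not the choice of the tile. The difference of 2.84 at this tile was not called (adjusted p = 0.0721 by limma).

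Dnmt3b gave 1 called tile between the lines, chr2:153662001-153664000, with 1.64, 1.82 and 2.18 against 0.86, 0.92 and 0.96 (difference 0.96, SE 0.25, adjusted p = 0.0106). The call was lost without TET_WT day 2 replicate 1 (adjusted p = 0.0599) or DNMT_WT replicate 3 (0.139). Its start tile did not separate the lines (-0.44, adjusted p = 0.55). In all 9 member tiles were called higher and 2 lower, 8.09% against 3.24% of all tiles, of which 1% were higher and 2.24% lower. That count ranged from 2 to 21 when 1 library was left out, with 2 without TET_WT day 2 replicate 1, 3 and 4 without replicates 3 and 2, 5 or 6 without a DNMT_WT library, 18 without day 1 replicate 3 and 21 without day 0 replicate 2.

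The signal of 4 of the 5 genes was higher over the gene than beside it. Body tiles were set against tiles within 20 kb outside the annotated span. The body exceeded the flanks in all 11 libraries by a mean of 1.10 ± 0.32 at Dnmt1, 0.84 ± 0.18 at Dnmt3a, 1.37 ± 0.34 at Dnmt3b and 1.15 ± 0.28 at Uhrf1 (SD over 11 libraries). At Dnmt3l the mean was 0.09 ± 0.33, and the body was higher in only 5 of 11 libraries. Flanks of 10 kb gave 0.43 for Dnmt1 and 0.49 for Dnmt3a.

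From day 0 to day 2 the flanks of all 5 genes differed upward, by 0.63 at Dnmt1, 0.31 at Dnmt3a, 0.50 at Dnmt3b, 0.74 at Dnmt3l and 0.52 at Uhrf1. Those of Dnmt1, Dnmt3b and Dnmt3l did so without overlap between the groups. The share of all genes with such flanks was not computed, and 23.6% of all gene values were higher in this way. The bodies differed by 0.16, 0.20, 0.08, 0.25 and 0.94 in the same order. The contrast of body over flank thus differed by -0.47 at Dnmt1, -0.11 at Dnmt3a, -0.42 at Dnmt3b and -0.49 at Dnmt3l and by 0.41 at Uhrf1. At Uhrf1 it was 0.96, 0.79 and 0.97 at day 0 and 1.43, 1.25 and 1.28 at day 2. At Dnmt1 it went the opposite way without overlap, from 1.26, 1.56 and 1.37 to 0.85, 1.01 and 0.90. So it did at Dnmt3l, from 0.69, 0.41 and 0.17 to -0.06, -0.15 and 0.02. These contrasts were not tested and were not computed for all genes.

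**Figure D5:**
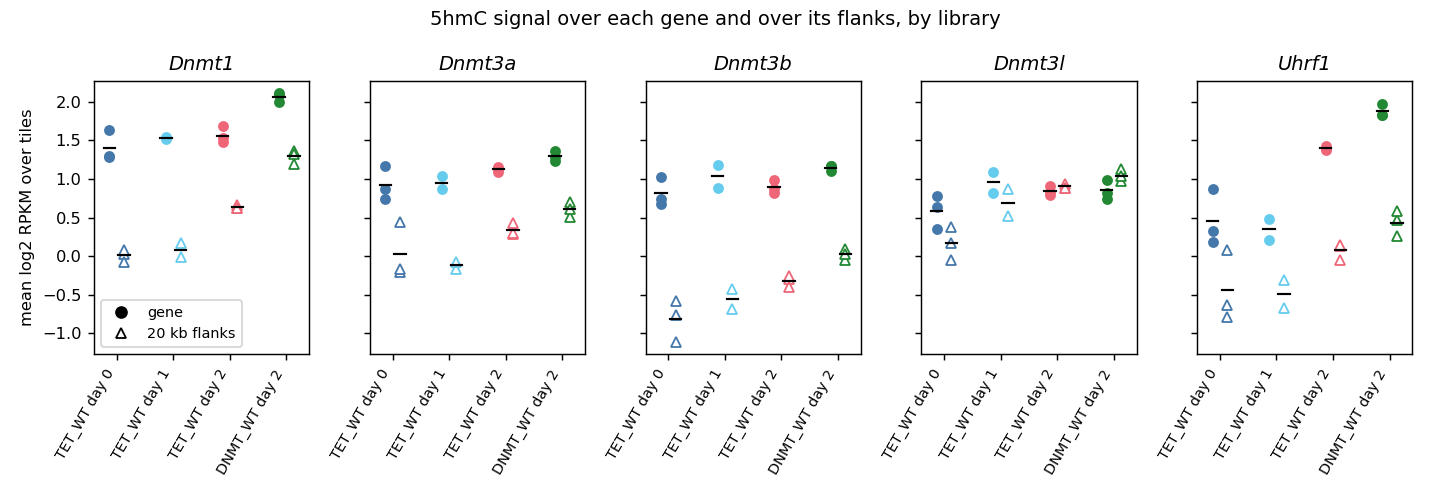
Mean log2 RPKM over the tiles of each gene body (filled circles) and over the tiles within 20 kb outside it (open triangles) (y axis) by group (x axis). Each symbol is a library and bars are group means. Circles and triangles are apart at Dnmt1, Dnmt3a, Dnmt3b and Uhrf1 within each group and meet at Dnmt3l.

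Per length, Dnmt1 led in every group and stood apart from the next gene in each. The order at day 0 was Dnmt1, Dnmt3a, Dnmt3b, Dnmt3l and Uhrf1, with means of 1.44, 0.87, 0.74, 0.52 and 0.18, and neighbours below Dnmt1 overlapped. At day 1 Dnmt3b, Dnmt3l and Dnmt3a overlapped one another in the middle (0.97, 0.94 and 0.92) and Uhrf1 was apart below them at 0.05. At TET_WT day 2 Uhrf1 moved to second place at 1.27, apart from Dnmt1 at 1.57 and Dnmt3a at 1.07, and only Dnmt3l and Dnmt3b (0.85 and 0.83) overlapped. DNMT_WT had the same order at its head, with 2.07, 1.72 and 1.23 for Dnmt1, Uhrf1 and Dnmt3a, and then Dnmt3b at 1.09 and Dnmt3l at 0.86. Among all genes Dnmt1 stayed between percentiles 95.29 and 97.65 in the 4 groups.

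Other genes of the methylation pathway were read from a list of 26, all of which had a value. From day 0 to day 2, 10 were called higher and 0 lower, where 15.3% and 2.51% of all genes were. The list median was 0.22 against 0.09 over all genes. Genes without a call went both ways, such as Tdg (0.22) and Lig1 (-0.48), each without overlap between the groups. Among erasers and repair genes Tet1 and Tet2, which make 5hmC, rose by 0.68 and 1.26 (adjusted p = 0.00107 and 0.00216 by limma), and the other 3 genes of that role were not called. Of the partners of maintenance 3 of 7 were called higher. They were Usp7, a deubiquitinase that binds Dnmt1 and Uhrf1 (0.53), Cdca7 of the Hells remodeller (0.83), and Dppa3, which keeps Uhrf1 off chromatin (0.84). The methyl-CpG reader Zbtb4 rose by 0.91, the histone methyltransferase gene Ehmt2 by 0.56, and all 3 imprint and repressor factors rose, Zfp57 by 1.79, Trim28 by 0.96 and Prdm14 by 1.34. Called falls numbered 3 when RPKM was averaged before the log, 2 with voom and 1 under 6 other settings. Among those 6 were leaving out day 0 replicate 2 or day 2 replicate 2. Median centring left 6 called rises, and rises over all genes went from 3170 to 1207. Falls over all genes numbered 519 in the main fit, 1533 with RPKM averaged before the log and 1823 with voom.

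Uhrf1 at 1.10 thus lay within the range of the called pathway genes, and the 4 methyltransferase family members lay below it. At day 1 no gene of the list was called, and 1 was without day 0 replicate 2. From day 1 to day 2, 7 were called higher (Tet1, Tet2, Usp7, Dppa3, Zbtb4, Zfp57 and Prdm14). The reader Mbd1 was the 1 called lower, at -0.46 (adjusted p = 0.0467 by limma). Of all genes 8.99% were called higher and 0.599% lower. No fall was called without any 1 of 9 libraries in turn, with the replicate block, without the tile filter or after median centring. The same held with voom, thinned reads, no 2 kb flanks, 20 kb flanks or no variance trend. Called rises numbered 4 without TET_WT day 2 replicate 2, 4 with voom and 1 after median centring. Rises called over all genes fell as well, from 1862 in the main fit to 1017, 788 and 236 in these settings. In DNMT_WT against TET_WT 10 were called higher and 0 lower, where 14.9% and 4.07% of all genes were. The list median was 0.40 against 0.10 over all genes, with the smallest p for Usp7 at 0.63 (adjusted p = 0.00144). The count of 10 fell to between 2 and 5 when any 1 of the 6 day 2 libraries was left out. The share of all genes called between the lines fell as well, from 19% to between 9.95% and 13.1%.

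The genes whose values ran most like each member over the 11 libraries were Timm50, Zfp536 and Ccdc86 for Dnmt1 (Pearson r = 0.985, 0.979 and 0.979), and Slc66a1, Anxa6 and Daglb for Dnmt3a (0.986, 0.977 and 0.975). For Dnmt3b they were Fbxw9, Tas1r2 and Srd5a1 (0.955, 0.945 and 0.939), for Dnmt3l Parvg, Prr5 and Pomgnt2 (0.929, 0.899 and 0.896), and for Uhrf1 Manbal, Grtp1 and Akap1 (0.994, 0.994 and 0.993). Genes with r over 0.9 numbered 2020 for Uhrf1, 798 for Dnmt1, 649 for Dnmt3a, 12 for Dnmt3b and 1 for Dnmt3l. The pattern of Uhrf1 was thus shared by many genes and that of Dnmt3l by few. The points share their libraries, groups and depth, so these are descriptions.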

How the data were processed

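5hmC was measured by HMCP-seq in 11 libraries. Reads were trimmed and aligned by the authors with tools that include, per the submitters' processing notes, Bowtie2 2.4.1, cutadapt 2.3 and Trim Galore 0.6.5, on GRCm38. How tiles were counted is not given in the sources used here. The deposited values are log2 RPKM per 2 kb tile, computed by the authors. Each value was a whole number of reads within 0.1%, or 0.9 reads where a tile had none, so reads could be recovered. All libraries had a group, and no column was left unmapped.

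Tiles of chromosomes 1 to 19 and X were kept (1316897), without the lowest 10% and highest 0.1% by mean signal (1183888 tested). Genes took RefSeq spans (GRCm38.p6) plus 2 kb on both sides and at least 3 tiles (20713 of 21627 protein-coding genes). Groups were compared in 1 fit of all 11 libraries by limma 3.58.1 in R 4.3.3 (lmFit, eBayes with a variance trend), with two-sided tests and Benjamini-Hochberg adjustment over all genes or tiles. The script was tested on simulated data. Deviations of same-numbered replicates from their group means correlated at r from -0.288 to 0.299 across genes. In a group of 2 libraries these deviations mirror each other, so the check cannot settle pairing. No block was used in the main fit. Named tiles were the annotated start tile, the largest difference in each direction from day 0 to day 2 and the called tile of smallest p per comparison; tiles over other starts, and further called tiles, were added after their values were seen. Pathway genes were named where called between TET_WT days, or as the smallest p of their role, and genes of like pattern as the 3 highest correlations on another chromosome or over 1 Mb away. The members and lists were chosen with earlier results of these data known. Sequences are from RefSeq promoter windows. Alternatives covered filters, scaling, voom, thinned reads, spans, samples in the fit, the variance trend, a replicate block and leaving out each library.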

Additional observations from a re-analysis of the deposited data

How the results depend on the processing

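Values of genes are log2 differences. With RPKM averaged before the log, Dnmt1 differed by -0.016 between day 2 and day 0 and by -0.114 between day 2 and day 1, the reverse of its sign, and Dnmt3l at day 2 (0.38, adjusted p = 0.036) and Uhrf1 between the lines (0.43, adjusted p = 0.0225) were called by limma. With voom, Uhrf1 at day 1 (0.044) and Dnmt1 from day 1 to day 2 (-0.13) turned sign, and Dnmt3a (0.31) and Dnmt3l (0.40) at day 2 and Dnmt3b (0.27) and Uhrf1 (0.43) between the lines were called. Thinned reads turned the sign of Uhrf1 at day 1 (0.16), Dnmt3l from day 1 to day 2 (0.032) and Dnmt3l between the lines (-0.13). With 20 kb flanks Dnmt3a at day 1 (-0.02) and Dnmt3b (0.049) and Dnmt3l (0.0925) from day 1 to day 2 turned sign, and Dnmt1 (0.37), Dnmt3b (0.29) and Dnmt3l (0.56) at day 2 and Dnmt3b between the lines (0.30) were called. The span alone called Uhrf1 between the lines (0.48). Only the groups compared in the fit called Dnmt3b (0.26) and Uhrf1 (0.45) between the lines. Calls over all genes also rose in these settings, except with the span alone. At day 2 against day 0 they numbered 3689 in the main fit, 6151 with averaged RPKM, 6897 with voom and 4786 with 20 kb flanks. Between the lines they numbered 3929, 6281, 6652 and 6260 in that order. They numbered 3266 there with the span alone and 6903 with only the groups compared. Tiles at or above the median signal gave -0.0015 for Dnmt1 from day 1 to day 2. Median centring, which moved the median of all genes between the lines from 0.10 to 0.31 and the share of calls that were higher from 78.5% to 92.8%, ended the calls of Uhrf1 from day 1 to day 2 (1.26) and Dnmt1 between the lines (0.72). Quantile normalization moved the median of all genes from 0.0895 to -0.0344 at day 1 and from 0.0013 to 0.126 from day 1 to day 2. Flanks of 10 kb gave body contrasts of 0.43 at Dnmt1 and 0.49 at Dnmt3a. The cause was not tested for these changes.

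The labels do not say whether replicate numbers pair the libraries. With the replicate block Uhrf1 was called between the lines (0.45, adjusted p = 0.0402), and Dnmt3a at day 1 was -0.0024. It ended the calls of the Dnmt3b start tile from day 1 to day 2 (0.95, adjusted p = 0.0879) and of the 1 pathway gene called lower between those days. Calls over all genes at day 2 against day 0 numbered 3495 in place of 3689. No other call of a member gene or named tile changed.

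The called member tiles numbered 30 and 4 at days 2 and 1 relative to day 0, 15 between days 1 and 2 and 11 between the lines. In that order they became 1, 0, 0 and 0 with thinned reads and 1, 0, 0 and 1 without the variance trend. With a common floor for low tiles, an alternative chosen after seeing the data, they were 15, 1, 5 and 3. Median centring left 1, 7 and 5 of the last 3 counts, quantile normalization 6 of the last, voom 0 and 18 of the last 2, and the fit of only the groups compared 1 at day 1 and 31 between the lines. Single tiles turned sign with thinned reads: the Dnmt3a annotated start tile in all 4 comparisons (-0.57, 0.23, -0.81 and 0.25), the Uhrf1 tile at 56310001 at day 2 (0.17) and the Uhrf1 start tile between the lines (0.26).

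Leaving out 1 library at a time, the calls of Uhrf1 against both earlier days and of Dnmt1 between the lines held, with ranges of 0.93 to 1.32, 1.16 to 1.3 and 0.47 to 0.56. At day 2 against day 0 the ranges were 0.0699 to 0.23 for Dnmt1, 0.11 to 0.32 for Dnmt3a and 0.24 to 0.44 for Dnmt3l, each called only without day 0 replicate 2, and between the lines 0.40 to 0.50 for Uhrf1. Signs turned within the ranges of Dnmt3a (-0.047 to 0.17) and Uhrf1 (-0.30 to 0.10) at day 1, Dnmt1 (-0.047 to 0.043) and Dnmt3b (-0.31 to 0.032) from day 1 to day 2, and Dnmt3l between the lines (-0.0703 to 0.0724). They also did at the Dnmt1 (-0.13 to 0.39) and Uhrf1 (-1.85 to 0.051) start tiles at day 1 and the Dnmt3a start tile at day 2 (-0.14 to 0.27). Called member tiles ranged from 19 to 34, 1 to 11, 7 to 17 and 2 to 21 in the 4 comparisons. Without day 0 replicate 2, the calls over all genes at day 2 numbered 6542 in place of 3689, and 69.7% in place of 85.9% of them were higher.

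Depth limits the tiles that held under 10 reads in many libraries, such as those over the CpG-rich starts of Dnmt1 and Dnmt3a, and day 1 replicate 2 was the shallowest library.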
